A study of Mus musculus with 12 samples.

Results

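The genes described here encode the subunits of the proteasome and the proteins that cap, open or block it, measured in myeloid cells from mouse tumors. They were taken by symbol, as every protein-coding gene of the mouse GENCODE annotation named Psma, Psmb, Psmc, Psmd, Psme or Psmf with a number, without the inducible catalytic subunits Psmb8, Psmb9 and Psmb10. The rule gave 43 of the 54446 genes in the count files, of which 21918 are protein-coding. Of the 43 genes, 16 encode the core particle, 25 encode its regulators and 2 match the symbol rule without being a separate subunit gene of either kind. Psme2b is a copy of the activator gene Psme2, and Psmc3ip encodes a meiotic recombination protein that only shares the symbol.

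The cells were CD11b+ myeloid cells sorted out of MC38 tumors, a colon carcinoma line of C57BL/6 mice, grown in WT mice, which are the Cre-free Ythdf2 f/f mice of the study. Ctrl tumors were unirradiated, and IR tumors had received 20 Gy of local irradiation 3 days earlier. Both conditions had 3 pools of cells from 5 mice each, and each pool gave an Input library, made from a part of the lysate, and an IP library, made from the RNA recovered with an antibody to YTHDF2, a reader of the RNA modification m6A that promotes the degradation of the mRNAs it holds. The pools were named technical replicates in the study's methods, so p-values here measure the spread between pools, which may be technical.

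The proteasome degrades proteins that are tagged with ubiquitin. Its core particle is a barrel of alpha rings around beta rings, and the catalytic beta subunits cut the substrate inside. The regulatory particle sits on the end of the barrel: a ring of ATPases unfolds the substrate, base subunits bind ubiquitin, and the lid removes the ubiquitin chain. Other caps, the PA28 and PA200 activators, open the barrel without ATP. In myeloid cells the proteasome also makes the peptides shown on MHC class I and degrades the inhibitor of NF-κB.

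Input libraries held 34445784 to 40008607 counted reads in Ctrl and 37940948 to 42382532 in IR, and IP libraries 28919897 to 33882664 in Ctrl and 27852948 to 30244160 in IR. Levels are CPM, counts scaled by the library total after TMM normalization of all libraries, and 3 counts were worth 0.0708 to 0.108 CPM. Reads that the counting placed on no annotated feature made up 26.94% to 26.98% of Ctrl Input and 24.65% to 24.77% of IR Input. They made up 41.77% to 42.69% of the Ctrl IPs and 49.41% to 54.09% of the IR IPs. Such reads can include those in introns. The 11 myeloid markers summed to 9804 to 10690 CPM in Ctrl Input libraries and to 13230 to 14040 CPM after IR. The largest parts of these sums were S100a9 (means of 3519 CPM in Ctrl Input and 4907 in IR Input), Lyz2 (2469 and 2587) and S100a8 (2103 and 2905). The 6 markers of T cells, including Cd3e and Trac, stayed below 1 CPM each in the Inputs of both conditions. The 4 NK cell markers also lay below 1 CPM in the Inputs, the 4 B cell markers summed to 18.6 to 27.8 CPM, the 5 fibroblast markers to 6.03 to 12.6 CPM, the 5 tumor epithelial markers to 4.55 to 6.80 CPM, the 4 endothelial markers to 21.7 to 26.8 CPM and the 4 erythroid markers to 0.515 to 1.69 CPM. The epithelial marker Krt19 and the endothelial marker Cldn5 were at 0 in every library.

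In the Ctrl Input, nearly every proteasome gene was expressed. The genes with the most CPM per kb of annotated exon were those of the interferon-inducible activator PA28. This length joins all annotated exons of a gene and exceeds that of a single coding transcript unevenly. It is 3071 against 914 bases for Psma7 and 1764 against 962 bases for Psme2, so the order depends on the length used. Levels per kb of annotated exon put Psme1, the PA28 alpha gene, first with 136 ± 10.9 CPM per kb (SD, n = 3) and Psme2, the PA28 beta gene, second with 126 ± 1.77 CPM per kb; they differed by less than the SD of Psme1. The ubiquitin receptor Psmd4 followed with 113 ± 5.82 CPM per kb, then the ATPase gene Psmc1 with 99.4 ± 3.6 and the alpha ring gene Psma4 with 96.2 ± 7.11 CPM per kb. At the lower end were the base chaperone genes Psmd5 (4.15 ± 0.144 CPM per kb) and Psmd9 (3.39 ± 0.508) and the inhibitor gene Psmf1 (3.59 ± 0.076). Of the 42 neighbouring pairs in this order, 20 differed by less than the larger SD of the pair, among them Psmd7 and Psmb6, and Psmc1 and Psma4. Both tissue-restricted core genes were near 0. The testis alpha subunit gene Psma8 had 13 to 24 counts in the Ctrl Inputs and 16 to 18 in the IR Inputs, 3 to 11 in the Ctrl IPs and 0 to 7 in the IR IPs. The thymus beta subunit gene Psmb11 had 0 to 2 counts in each Input, 0 to 10 in the Ctrl IPs and 0 in every IR IP. It passed no filter on low counts and was tested only in the fits without a filter.

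Between Ctrl and IR Input, which compares RNA abundance in the sorted cells, 15 of the 42 genes tested were higher after IR and 5 were lower (edgeR's quasi-likelihood test, adjusted p below 0.05). Of all genes tested, 21.0% were higher and 23.9% were lower, so the members' share of higher calls, 35.7%, lay above that background and their share of lower calls, 11.9%, below it. Among abundant coding genes (protein-coding, mean count of 1000 or more), 32.6% were higher and 33.7% lower. In the core 7 of 15 genes rose and 0 fell, with 0 core genes lower at an unadjusted p under 0.05 and 0 with DESeq2, while 7 of 25 regulatory genes rose and 5 fell. The median log2 change was 0.12 over the core, -0.024 over the regulatory genes and 0.0072 over all genes tested. Every IR Input lay above every Ctrl Input for 22 members, 10 of them core and 11 regulatory, and below for 4, all regulatory; among all genes these shares were 32.6% and 21.1%. In bulk libraries fewer cells of a type and less RNA per cell cannot be told apart. The same Inputs also differed in their markers. Of the 11 myeloid markers, 8 were higher after IR and 2 were lower, Csf1r (log2 change -0.12) and Adgre1 (-0.24). Of the 6 proliferation markers 5 were lower, with sums of 1341 to 1365 CPM in Ctrl and 977 to 981 CPM in IR. The part of these marker differences in the proteasome values was not tested.

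**Figure D1:**
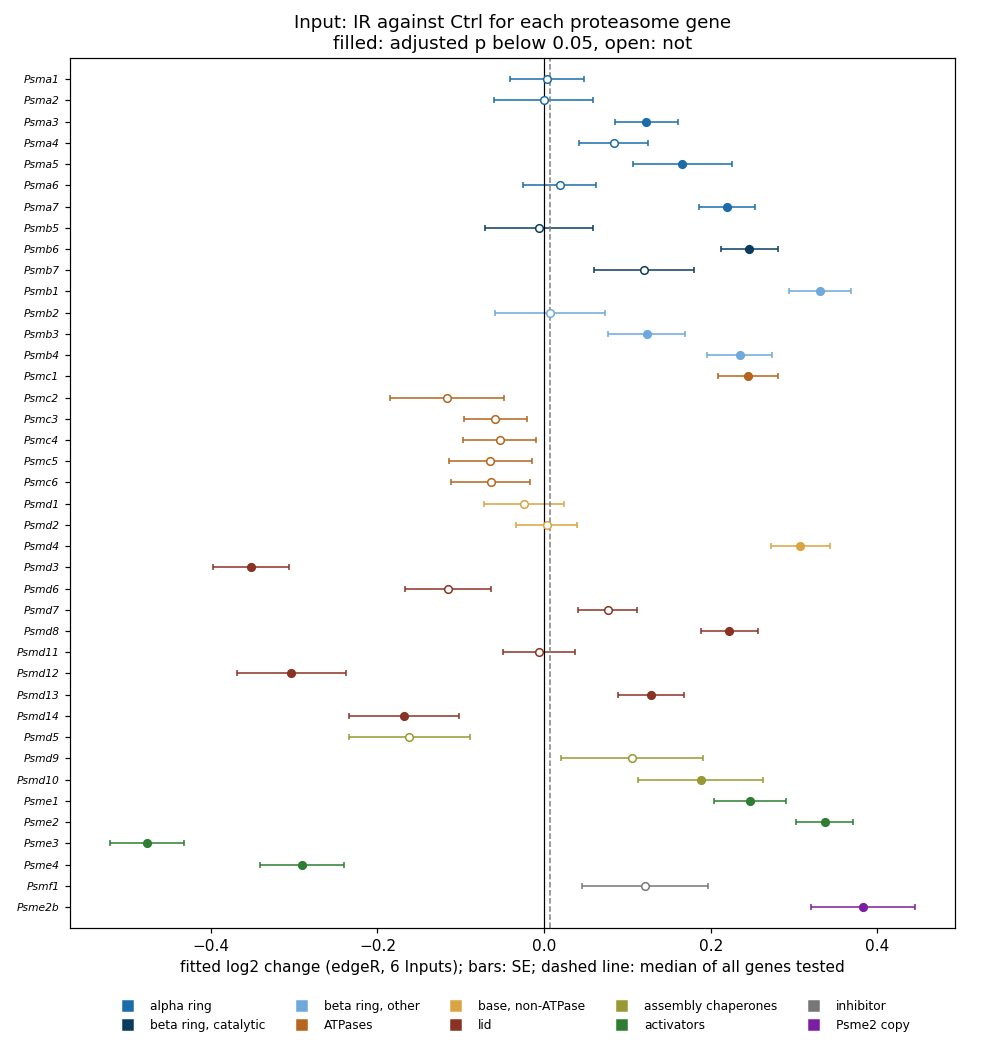
Fitted log2 change of each proteasome gene in Input, IR against Ctrl, with its SE, grouped by role. Psma8, Psmb11 and Psmc3ip are not drawn. Filled points passed the test, open ones did not, and the dashed line is the median of all genes tested, 0.0072. The core genes drawn lie between -0.0064 (Psmb5) and 0.33 (Psmb1) and the regulatory genes between -0.48 (Psme3) and 0.34 (Psme2).

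In the alpha ring, which gates the barrel, 3 of 7 genes rose and 0 fell. Psma7 had 229, 238 and 225 CPM in the Ctrl Inputs and 277, 284 and 289 CPM in the IR Inputs, and all 3 IR values were higher than every Ctrl value. The fitted log2 change was 0.22 ± 0.033 (SE), adjusted p = 4.39e-06. Psma5 had 37.5, 34.96 and 40.3 CPM in the Ctrl Inputs and 46.96, 42.8 and 43.9 CPM in the IR Inputs, again without overlap, and a log2 change of 0.17 ± 0.06 (SE), adjusted p = 0.0252. Psma3 rose by 0.12 (adjusted p = 0.00982). The other alpha genes did not pass the test. Psma4 had 247, 223 and 215 CPM in the Ctrl Inputs and 258, 256 and 251.4 CPM in the IR Inputs, with the IR values just above the Ctrl values, and a log2 change of 0.083 ± 0.041 (SE), adjusted p = 0.104. Psma2 had 54.2, 68.97 and 61.5 CPM in the Ctrl Inputs and 62.96, 67.2 and 64.97 CPM in the IR Inputs, with overlapping groups and a Ctrl spread wider than the IR spread. Psma1, Psma6 and Psma8 had log2 changes of 0.0038, 0.018 and -0.24. On the CPM scale of all 12 libraries the IR Inputs sit somewhat higher than in the fit of the 6 Inputs alone, which moved the median of all genes by 0.09 when all 12 libraries entered the fit; with that fit 13 members rose and 2 fell.

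Among the beta genes, 4 of 7 constitutive ones rose and 0 fell. Psmb1, a noncatalytic subunit, had the largest change of the core, with 117, 125 and 126 CPM in the Ctrl Inputs and 161, 167 and 162 CPM in the IR Inputs. The lowest IR value was above the highest Ctrl value, and the log2 change was 0.33 ± 0.037 (SE), adjusted p = 3.55e-08, or 1.26-fold. Of the catalytic subunits, Psmb6, which carries the caspase-like site, rose from 152, 155 and 155 CPM in Ctrl to 196, 194 and 188 CPM in IR (log2 change 0.25 ± 0.034 (SE), adjusted p = 1.3e-06). Psmb5, which carries the chymotrypsin-like site, did not pass the test: its levels were 34.8, 31.4 and 33.7 CPM in the Ctrl Inputs and 35.6, 37.1 and 32.4 CPM in the IR Inputs, with overlap, and its log2 change was -0.0064 ± 0.065 (SE), adjusted p = 0.948. Psmb7, which carries the trypsin-like site, had 37.7, 35.5 and 37.4 CPM in the Ctrl Inputs and 39.4, 45.4 and 42.05 CPM in the IR Inputs. All its IR values were above the Ctrl values, but the log2 change of 0.12 ± 0.06 (SE), adjusted p = 0.107 missed the threshold. The noncatalytic genes Psmb4 and Psmb3 rose by 0.23 (adjusted p = 1.6e-05) and 0.12 (adjusted p = 0.0329). Psmb2 overlapped between conditions, with 28.3, 30.1 and 30.6 CPM in the Ctrl Inputs and 29.01, 32.8 and 32.7 CPM in the IR Inputs and a log2 change of 0.0068 ± 0.066 (SE), adjusted p = 0.946.

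The ATPase ring of the regulatory particle had 1 higher call among its 6 genes. Psmc1 rose from 199.8, 190.4 and 186 CPM to 239, 236 and 245 CPM, without overlap (log2 change 0.24 ± 0.036 (SE), adjusted p = 2.45e-06). The other 5, Psmc2, Psmc3, Psmc4, Psmc5 and Psmc6, had changes between -0.12 and -0.053, and none passed the test. Psmc2, the lowest of them, had 35.4, 30.5 and 35.4 CPM in the Ctrl Inputs and 34.02, 30.4 and 34.2 CPM in the IR Inputs, and Psmc6 had 50.99, 52.3 and 52.98 CPM in the Ctrl Inputs and 52.5, 52.4 and 52.9 CPM in the IR Inputs; both overlapped. The base subunits split as well. Psmd4, a ubiquitin receptor, rose from 336, 309.5 and 307 CPM to 423, 409.7 and 412 CPM (log2 change 0.31 ± 0.035 (SE), adjusted p = 5.93e-08), while the scaffold genes Psmd1 and Psmd2 had log2 changes of -0.024 and 0.003. Psmd1 had 111, 104 and 94.97 CPM in the Ctrl Inputs and 111, 104 and 107 CPM in the IR Inputs, and Psmd2 had 139.8, 145 and 152 CPM in the Ctrl Inputs and 155, 153 and 155 CPM in the IR Inputs, where the groups touched without overlapping.

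The lid held the lower calls of the regulatory particle: 2 of its 8 genes rose and 3 fell. Psmd3 fell from 66.2, 65.9 and 66.9 CPM to 56.1, 53.7 and 54.9 CPM, a log2 change of -0.35 ± 0.046 (SE), adjusted p = 4.05e-07, with every IR library below every Ctrl library. Psmd12 changed by -0.30 ± 0.066 (SE), adjusted p = 0.000411, without overlap. The deubiquitinase gene Psmd14 changed by -0.17 ± 0.066 (SE), adjusted p = 0.0404, and its groups overlapped. In the other direction, Psmd8 had 193, 207 and 207 CPM in the Ctrl Inputs and 245, 253 and 250.5 CPM in the IR Inputs, all IR values higher, with a log2 change of 0.22 ± 0.034 (SE), adjusted p = 5.85e-06. Psmd13 had 93.1, 97.2 and 94.3 CPM in the Ctrl Inputs and 114, 107 and 108 CPM in the IR Inputs and a log2 change of 0.13 ± 0.04 (SE), adjusted p = 0.0101. Psmd7, the partner of the deubiquitinase, did not pass the test: it had 191, 189.7 and 179 CPM in the Ctrl Inputs and 207, 207 and 209 CPM in the IR Inputs and a log2 change of 0.076 ± 0.035 (SE), adjusted p = 0.0814. Psmd6, Psmd11 and the meiotic gene Psmc3ip had log2 changes of -0.12, -0.0057 and -0.15, and none passed; Psmd6 had 54.6, 52.6 and 52.5 CPM in the Ctrl Inputs and 50.1, 50.4 and 55.1 CPM in the IR Inputs, with overlap. Of the chaperones that assemble the base, Psmd10 rose from 18.2, 19.4 and 20.6 CPM to 22.6, 23.8 and 23.6 CPM (log2 change 0.19 ± 0.075 (SE), adjusted p = 0.0429), while Psmd5, with 30.8, 28.9 and 30.5 CPM in the Ctrl Inputs and 27.2, 31.9 and 26.1 CPM in the IR Inputs, and Psmd9 did not pass (-0.16 and 0.11).

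The activators split by type, 2 higher and 2 lower. The values of Psme2 carry a limit given below, since its coding sequence is nearly identical to that of the copy Psme2b. Both subunits of the interferon-inducible PA28 alpha/beta ring rose. Psme2 had 219, 225 and 221 CPM in the Ctrl Inputs and 283, 305 and 299 CPM in the IR Inputs, so that the lowest IR library was well above the highest Ctrl library, and its log2 change was 0.34 ± 0.034 (SE), adjusted p = 5.08e-09, or 1.26-fold. Psme1 had 328, 291 and 283 CPM in the Ctrl Inputs and 389, 359 and 382 CPM in the IR Inputs, also without overlap, and a log2 change of 0.25 ± 0.043 (SE), adjusted p = 3.21e-05. The nuclear activators fell. Psme3, which encodes PA28 gamma, had 91.9, 98.05 and 94.95 CPM in the Ctrl Inputs and 68.2, 73.2 and 74.8 CPM in the IR Inputs, every IR value lower, and its log2 change of -0.48 ± 0.044 (SE), adjusted p = 1.03e-09 was the lowest of all members. Psme4, which encodes PA200, had 59.9, 59.5 and 56.6 CPM in the Ctrl Inputs and 52.98, 50.2 and 48.7 CPM in the IR Inputs and a log2 change of -0.29 ± 0.05 (SE), adjusted p = 2.75e-05. The inhibitor gene Psmf1 had 22.6, 23.5 and 23.4 CPM in the Ctrl Inputs and 23.7, 28.9 and 27.2 CPM in the IR Inputs, with IR above Ctrl, but did not pass the test (0.12 ± 0.075 (SE), adjusted p = 0.202). The copy Psme2b rose by 0.38 ± 0.063 (adjusted p = 1.36e-05).

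Several Input calls did not pass in a fit with 1 pool fewer. Leaving 1 out ended the calls of Psma3 (0.095 without Ctrl pool 3 and 0.10 without IR pool 2), Psma5 (0.11 without Ctrl pool 2 and 0.13 without IR pool 1) and Psmb3 (0.12 without Ctrl pool 2, 0.10 without Ctrl pool 3, 0.12 without IR pool 2 and 0.12 without IR pool 3). Among the regulatory genes it ended those of Psmd10 (0.15 without Ctrl pool 1, 0.18 without Ctrl pool 2, 0.18 without IR pool 2 and 0.18 without IR pool 3), Psmd13 (0.12 without Ctrl pool 3 and 0.10 without IR pool 1) and Psmd14 (-0.14 without Ctrl pool 2, -0.14 without Ctrl pool 3 and -0.12 without IR pool 1). The calls of Psmd12 and Psme4 were lost when all 12 libraries shared 1 fit, with log2 changes of -0.22 and -0.21; that of Psmd14 was also lost with DESeq2 (-0.16), and those of Psmb3 and Psmd10 with library size alone or without a filter. The remaining 12 calls passed under every other setting that was run, apart from the added copy reads described below: Psma7, Psmb1, Psmb4, Psmb6, Psmc1, Psmd3, Psmd4, Psmd8, Psme1, Psme2, Psme2b and Psme3.

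The promoters of these genes are shown because proteasome genes are known to be induced as a group by the factors NRF1 and NRF2. RefSeq promoters on GRCm38.p6, 250 bases before to 50 after the start site, were found for 36 of the 43 genes; Psma8, Psmb1, Psmb2, Psmb7, Psmc3, Psmd3 and Psmd7 had no entry. Each of 3 motifs was searched on both strands. The antioxidant response element that NRF factors bind, TGACNNNGC, was in 6 of the members' 39 promoters (2 of 12 core and 4 of 22 regulatory genes), against 12.4% of the 32851 promoters of all genes. The CCAAT box, CCAAT, was in 14 of 39 (7 of 12 core and 6 of 22 regulatory genes), against 37.4% of all promoters. The ETS site CCGGAAG was in 14 of 39, against 8.86% of all promoters: it was found in 1 of 12 core genes (Psma6), in 11 of 22 regulatory genes and in Psmc3ip. The antioxidant response elements, in capitals, of the catalytic genes Psmb5 and Psmb6, 1 of which rose in the Input, and of Psme4 and Psmd9 were as follows, each written along the gene's own strand.
Psmb5 (chr14:54618014-54618062, minus strand): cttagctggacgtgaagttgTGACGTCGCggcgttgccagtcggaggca
Psmb6 (chr11:70525328-70525376, plus strand): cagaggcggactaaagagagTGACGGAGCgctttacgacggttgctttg
Psme4 (chr11:30771748-30771796, plus strand): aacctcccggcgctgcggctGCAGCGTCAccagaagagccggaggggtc
Psmd9 (chr5:123228139-123228187, plus strand): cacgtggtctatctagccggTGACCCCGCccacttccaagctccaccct
The element began 47 bases before the start site in Psmb5, 9 in Psmb6, 7 in Psme4 and 31 in Psmd9; in Psme4 it lay on the opposite strand. The other 2 genes with the motif were Psmd12 and Psmc6.

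The ETS sites, again in capitals, are given for the core gene Psma6, for the regulatory genes Psmc1, Psmd4 and Psmd13, which rose in the Input, and for Psmd12 and Psme4, which fell.
Psma6 (chr12:55398673-55398719, plus strand): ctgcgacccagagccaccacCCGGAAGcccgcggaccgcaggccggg
Psma6 (chr12:55398803-55398849, plus strand): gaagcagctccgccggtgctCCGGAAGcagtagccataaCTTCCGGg
Psmc1 (chr12:100110154-100110200, plus strand): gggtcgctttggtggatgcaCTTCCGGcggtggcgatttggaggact
Psmd4 (chr3:95042713-95042759, minus strand): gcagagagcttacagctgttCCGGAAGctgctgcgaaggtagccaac
Psmd13 (chr7:140882368-140882414, plus strand): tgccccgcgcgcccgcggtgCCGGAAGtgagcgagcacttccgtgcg
Psmd12 (chr11:107479491-107479537, plus strand): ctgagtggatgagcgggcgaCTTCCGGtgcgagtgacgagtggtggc
Psme4 (chr11:30771702-30771748, plus strand): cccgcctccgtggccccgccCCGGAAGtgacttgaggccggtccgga
Psma6 held 3 sites, which lie in the pair of stretches printed for it. Genes that rose and genes that fell both held the motif. The other regulatory genes with it were Psmc2, Psmc6, Psmd2, Psmd6, Psmd11 and Psme3. A match of letters does not show that a factor binds there, and no binding of factors to DNA was measured here.

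The IP against Input comparison asks how much of each mRNA was recovered in the YTHDF2 IP relative to its abundance. The study's methods call genes that are higher in the IP YTHDF2 targets. No library was an IP with a control antibody or from cells without YTHDF2. RNA held by YTHDF2 and RNA carried over without it therefore cannot be told apart in these ratios. Most proteasome mRNAs were lower in the IP than in the Input. In Ctrl, 7 of 42 genes were higher in the IP and 31 were lower, where 34.1% of all genes tested were higher and 34.6% lower. In IR, 2 of 42 were higher and 37 lower, with 32.1% and 30.4% among all genes. Abundant coding genes were lower in 47.3% of cases in Ctrl and 51.4% in IR; the members' shares were 73.8% in Ctrl and 88.1% in IR. The core was lower than the regulatory genes. Its median log2 ratio was -1.51 in Ctrl and -1.90 in IR, against -0.72 and -0.83 for the regulatory genes and 0.018 and 0.10 for all genes tested. Without the low-count gene Psma8 the core medians were -1.65 in Ctrl and -1.77 in IR. Over the 14 constitutive core genes the pool medians were -1.72 ± 0.034 in Ctrl and -1.84 ± 0.061 in IR (SD, n = 3), and over the 25 regulatory genes -0.75 ± 0.078 in Ctrl and -0.85 ± 0.15 in IR, so the classes differed by more than the spread between pools in both conditions. Of the core, 1 of 15 genes was higher and 13 lower in Ctrl. In IR 14 were lower and 0 higher, also 0 at an unadjusted p under 0.05 and with DESeq2. Of the 25 regulatory genes, 5 were higher and 18 lower in Ctrl and 1 higher and 22 lower in IR.

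**Figure D2:**
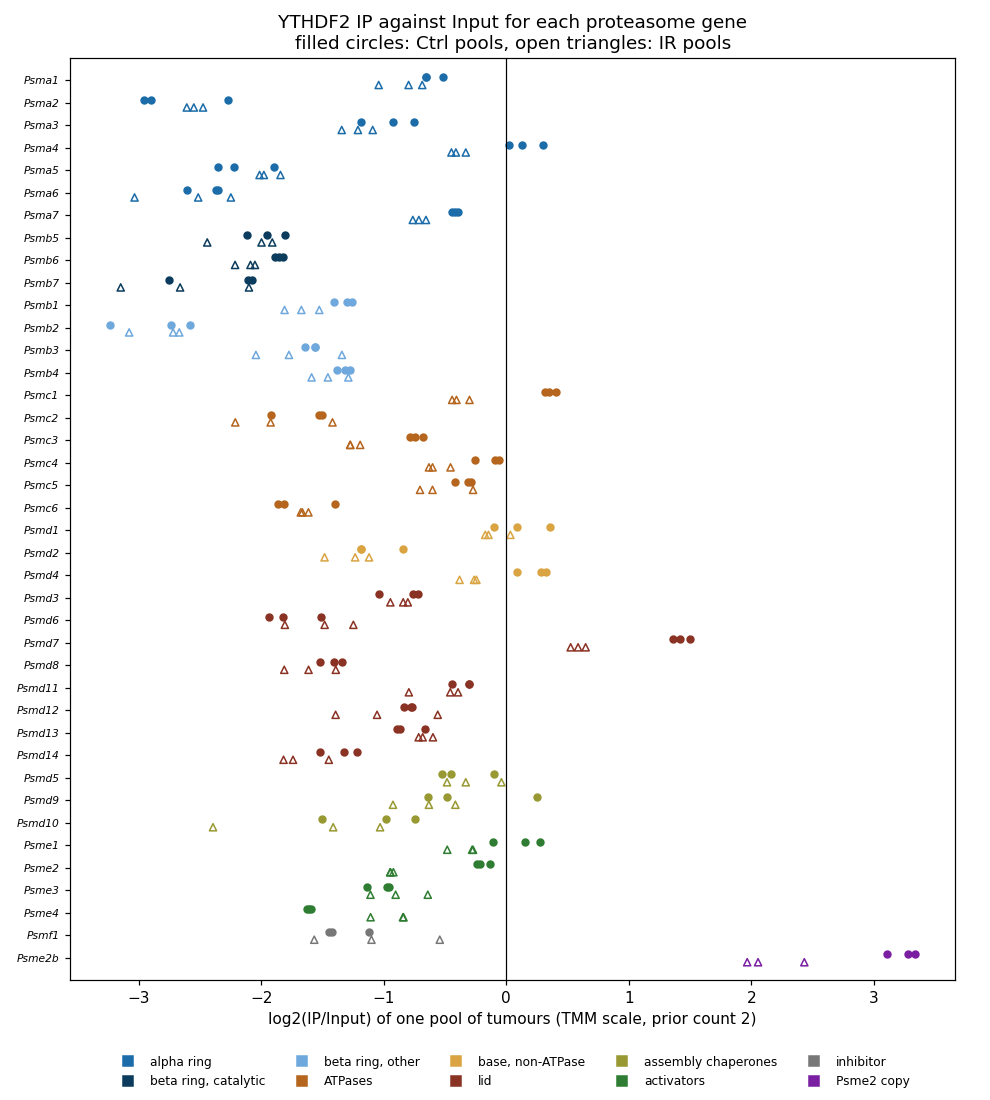
Log2(IP/Input) of each proteasome gene in each of the 6 pools, grouped by role, without Psma8, Psmb11 and Psmc3ip. Filled circles are Ctrl pools and open triangles IR pools. Every pool of the 7 constitutive beta genes lies below 0, while Psmd7 reaches 1.497 and Psme2b 3.34 in Ctrl.

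In the core, the 7 constitutive beta genes were all lower in the IP in both conditions, with fitted log2 ratios in Ctrl from -2.76 (Psmb2) to -1.25 (Psmb1). Psmb2 had 4.19, 4.97 and 3.20 CPM in the Ctrl IPs and 4.35, 5.10 and 3.81 CPM in the IR IPs, and its log2(IP/Input) was -2.74, -2.58 and -3.23 in the Ctrl pools and -2.72, -2.67 and -3.08 in the IR pools. The catalytic gene Psmb7 had 5.54, 8.15 and 8.83 CPM in the Ctrl IPs and 9.14, 5.07 and 6.59 CPM in the IR IPs, with ratios of -2.75, -2.11 and -2.08 in the Ctrl pools and -2.10, -3.15 and -2.66 in the IR pools. For Psmb5, which had 9.93, 8.09 and 7.75 CPM in the Ctrl IPs and 6.51, 9.24 and 8.56 CPM in the IR IPs, the ratios were -1.80, -1.95 and -2.11 in the Ctrl pools and -2.44, -2.00 and -1.91 in the IR pools. In all 6 pools these mRNAs were lower in the IP than in the Input with the same number. The remaining catalytic gene, Psmb6, had 43.00, 41.8 and 42.8 CPM in the Ctrl IPs and 46.03, 41.8 and 45.3 CPM in the IR IPs and fitted ratios of -1.78 ± 0.052 in Ctrl and -2.07 ± 0.063 in IR. Psmb3 and Psmb4 had -1.51 and -1.25 in Ctrl. The alpha genes were spread more widely, with 6 of 7 lower and 1 higher in Ctrl. Psma2 was the lowest, with 11.1, 8.81 and 8.20 CPM in the Ctrl IPs and 11.3, 11.4 and 10.6 CPM in the IR IPs and ratios of -2.28, -2.96 and -2.90 in the Ctrl pools and -2.48, -2.55 and -2.61 in the IR pools. Psma5 had 10.1, 6.81 and 8.61 CPM in the Ctrl IPs and 11.6, 10.8 and 12.2 CPM in the IR IPs and a fitted ratio of -2.07 ± 0.13 (SE), adjusted p = 1e-10 in Ctrl, and Psma6 had -2.36. Psma1 (-0.54), Psma3 (-0.87) and Psma7 (-0.34) were lower by less. Psma4 was the exception in Ctrl, with 250.9, 244 and 264 CPM in the Ctrl IPs and 194, 187 and 199.8 CPM in the IR IPs. Its fitted ratio in Ctrl was 0.22 ± 0.053 (SE), adjusted p = 0.00117, although the IP and Input levels overlapped; the call was lost with library size alone (0.041) and without a filter (0.11). In IR all 7 alpha genes were lower, Psma4 included (-0.34 ± 0.048 (SE), adjusted p = 8.97e-05).

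Among the subunits, the regulatory particle held the highest ratio as well as low ones. Psmd7, a lid subunit and partner of the deubiquitinase, had 490.1, 508 and 506 CPM in the Ctrl IPs and 298, 324 and 314 CPM in the IR IPs, against 186 ± 6.47 and 208 ± 1.39 CPM (SD, n = 3) in the Inputs. Every IP library was above every Input library, and the fitted log2 ratio was 1.502 ± 0.042 (SE), adjusted p = 1.97e-15 in Ctrl and 0.64 ± 0.047 (SE), adjusted p = 5.16e-07 in IR. It is the one subunit gene that was called higher in the IP in both conditions, and it has no annotated copy and no exon that overlaps another gene. The other 7 lid genes were lower in Ctrl, from Psmd6, with 14.2, 18.4 and 14.8 CPM in the Ctrl IPs and 21.1, 18.00 and 15.7 CPM in the IR IPs and a fitted ratio of -1.67, to Psmd11 at -0.28. Psmd8 had 76.1, 77.96 and 72.1 CPM in the Ctrl IPs and 69.5, 82.6 and 95.4 CPM in the IR IPs and a ratio of -1.35, Psmd3 had 38.96, 32.1 and 40.6 CPM in the Ctrl IPs and 32.1, 27.8 and 30.6 CPM in the IR IPs and -0.76, and Psmd13 had 50.2, 53.2 and 59.6 CPM in the Ctrl IPs and 69.2, 70.7 and 67.03 CPM in the IR IPs and -0.73. Psmd12 and Psmd14 were at -0.72 and -1.28. In the ATPase ring, 4 genes were lower in Ctrl, 1 was higher and Psmc4 did not pass (-0.054). Psmc6, with 19.3, 14.3 and 15.02 CPM in the Ctrl IPs and 17.1, 16.5 and 16.5 CPM in the IR IPs, and Psmc2, with 12.4, 8.03 and 12.2 CPM in the Ctrl IPs and 8.92, 11.3 and 7.33 CPM in the IR IPs, had the lowest ratios, -1.61 and -1.56. Psmc1 was higher in the Ctrl IP, with 249, 242 and 247 CPM in the Ctrl IPs and 180.3, 192 and 180.5 CPM in the IR IPs and a ratio of 0.43 ± 0.043 (SE), adjusted p = 8.78e-08. Psmc3 had -0.66 and Psmc5 -0.26. In IR all 6 ATPase genes were lower, from -1.78 (Psmc2) to -0.33 (Psmc1), and the lid genes other than Psmd7 were lower again.

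Of the base, Psmd4 was higher in the Ctrl IP, with 358, 376 and 384 CPM in the Ctrl IPs and 352, 314 and 348 CPM in the IR IPs and a ratio of 0.31 ± 0.046 (SE), adjusted p = 1.31e-05. Psmd1 was also called higher, with 104, 110.3 and 121 CPM in the Ctrl IPs and 98.8, 93.6 and 109 CPM in the IR IPs and a ratio of 0.19 ± 0.067 (SE), adjusted p = 0.0199, but its IP and Input levels overlapped. Psmd2 was lower, with 77.9, 63.7 and 66.8 CPM in the Ctrl IPs and 55.3, 64.8 and 71.2 CPM in the IR IPs and a ratio of -0.99. The chaperone gene Psmd10 had 10.8, 9.78 and 7.19 CPM in the Ctrl IPs and 11.02, 8.88 and 4.45 CPM in the IR IPs and a ratio of -0.98. Psmd5 had 28.8, 19.99 and 22.2 CPM in the Ctrl IPs and 26.4, 22.8 and 20.7 CPM in the IR IPs and -0.27, and Psmd9, at -0.20, did not pass. Among the activators, PA200 and PA28 gamma were lower in the Ctrl IP. Psme4 had 19.3, 19.7 and 18.5 CPM in the Ctrl IPs and 24.5, 27.9 and 27.2 CPM in the IR IPs and a ratio of -1.54 ± 0.077 (SE), adjusted p = 6.93e-12, and Psme3 had 46.6, 50.5 and 43.1 CPM in the Ctrl IPs and 43.7, 33.9 and 39.9 CPM in the IR IPs and a ratio of -0.95. The PA28 alpha/beta genes lay near 0: Psme1 had 304, 324 and 342 CPM in the Ctrl IPs and 278, 296 and 317 CPM in the IR IPs and a ratio of 0.18 ± 0.056 (SE), adjusted p = 0.00907, with overlap, and Psme2 was lower by a ratio of -0.12 ± 0.044 (SE), adjusted p = 0.0215. The inhibitor gene Psmf1 had 10.3, 8.56 and 8.68 CPM in the Ctrl IPs and 11.02, 9.72 and 18.6 CPM in the IR IPs and was lower in Ctrl (-1.26) and IR (-0.97). The meiotic gene Psmc3ip had 9.58, 10.02 and 10.8 CPM in the Ctrl Inputs and 8.87, 10.3 and 9.66 CPM in the IR Inputs and 7.59, 8.59 and 6.33 CPM in the Ctrl IPs and 7.66, 5.01 and 4.68 CPM in the IR IPs, and was called lower in IR (-0.68) but not in Ctrl (-0.35).

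Some calls did not pass in a fit with 1 pool fewer or with another scaling. In IR, a fit with 1 pool fewer also moved the median of all genes tested, by -0.065 to -0.090. In Ctrl, leaving out a pool ended the calls of Psmc5 (-0.20 without Ctrl pool 1), Psmd1 (0.21 without Ctrl pool 2 and 0.087 without Ctrl pool 3) and Psmd5 (-0.18 without Ctrl pool 2 and -0.20 without Ctrl pool 3). It also ended those of Psme1 (0.16 without Ctrl pool 2 and 0.12 without Ctrl pool 3) and Psme2 (-0.075 without Ctrl pool 1 and -0.10 without Ctrl pool 2). With library size alone Psmd1 was at 0.0037 and Psme1 at -0.0032, and fitting all 12 libraries together gave 0.11 and 0.11, none of them called. Psmd5 and Psme2 were not called with DESeq2 (-0.24 and -0.10). In IR, it ended the calls of Psmc5 (-0.31 without IR pool 1 and -0.36 without IR pool 2), Psmd4 (-0.13 without IR pool 2 and -0.19 without IR pool 3) and Psme1 (-0.15 without IR pool 1), and also those of Psmf1 (-0.66 without IR pool 2) and Psmc3ip (-0.46 without IR pool 2 and -0.46 without IR pool 3). Psmd4 in IR, fitted at -0.24, was also not called with library size alone (-0.091). The other 32 calls in Ctrl and 34 in IR, with Psma4 and Psme2 among them in IR, passed under every other setting that was run, apart from the added copy reads described below.

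The change of the ratio with IR was tested as the interaction, log2(IP/Input) in IR minus that in Ctrl, over all 12 libraries. It was lower after IR for 12 of 42 members and higher for 1; among all genes tested 13.9% were lower and 6.28% higher, and among abundant coding genes 38.7% were lower. The members' share of lower calls, 28.6%, was above that of all genes and below that of abundant coding genes. The median was -0.22 over the core, -0.20 over the regulatory genes, -0.083 over all genes and -0.21 over the abundant coding genes. Without the low-count gene Psma8 the core median was -0.19. All IR pools lay below all Ctrl pools for 13 members and above for 1, Psme4, where 21.5% and 13.9% of all genes did so. In the core 4 of 15 genes were lower and 0 higher (0 higher also at an unadjusted p under 0.05 and with DESeq2), and among the regulatory genes 7 of 25 were lower and 1 higher. The split between directions depended on the scaling: with library size alone, which moved the median of all genes by 0.31, 6 members were lower and 4 higher, and the medians of the core and the regulatory genes were 0.093 and 0.11. The share of reads on no annotated feature was higher in the IR IPs than in the Ctrl IPs, and its part in these values was not tested.

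Of the subunit genes called, Psmd7 had the largest decrease of the ratio, and several others with a decrease had been at or above their Input level in Ctrl. Psmd7 had log2 ratios of 1.36, 1.42 and 1.497 in the Ctrl pools and 0.52, 0.65 and 0.59 in the IR pools, without overlap, and an interaction of -0.84 ± 0.061 (SE), adjusted p = 4.78e-09. Its ratio was still positive in every IR pool. Psmc1 went from a positive to a negative ratio, with 0.32, 0.35 and 0.41 in the Ctrl pools and -0.41, -0.30 and -0.44 in the IR pools and an interaction of -0.74 ± 0.064 (SE), adjusted p = 5.77e-08. The same crossing was seen for Psmd4, with 0.089, 0.28 and 0.33 in the Ctrl pools and -0.26, -0.38 and -0.24 in the IR pools and an interaction of -0.53 ± 0.07 (SE), adjusted p = 1.29e-05. Psma4 had 0.023, 0.13 and 0.30 in the Ctrl pools and -0.41, -0.45 and -0.33 in the IR pools and an interaction of -0.55 ± 0.074 (SE), adjusted p = 1.79e-05, and Psme1 had -0.11, 0.15 and 0.28 in the Ctrl pools and -0.48, -0.28 and -0.27 in the IR pools and an interaction of -0.45 ± 0.085 (SE), adjusted p = 0.000613. In all of these the IR pools lay below the Ctrl pools. Psme2, already slightly below its Input in Ctrl, had -0.24, -0.22 and -0.13 in the Ctrl pools and -0.95, -0.95 and -0.92 in the IR pools and an interaction of -0.74 ± 0.069 (SE), adjusted p = 1.56e-07. The remaining lower calls were the ATPase genes Psmc3 (-0.51 ± 0.084, adjusted p = 0.000158) and Psmc4 (-0.43 ± 0.11, adjusted p = 0.00555) and the core genes Psma7 (-0.29 ± 0.07, adjusted p = 0.00488), Psmb1 (-0.34 ± 0.10, adjusted p = 0.014) and Psmb6 (-0.26 ± 0.078, adjusted p = 0.0205). Psma7 had 171, 181 and 165 CPM in the Ctrl IPs and 163, 180.3 and 176 CPM in the IR IPs and Psmb1 48.8, 50.7 and 47.5 CPM in the Ctrl IPs and 55.9, 52.3 and 46.1 CPM in the IR IPs, so the IP levels of these 2 genes overlapped between conditions. The call of Psmb1 was lost on leaving out single pools (-0.31 without Ctrl pool 1, -0.32 without Ctrl pool 2, -0.32 without IR pool 2 and -0.26 without IR pool 3), and so was that of Psmb6 (-0.24 without Ctrl pool 1, -0.28 without Ctrl pool 2, -0.26 without Ctrl pool 3 and -0.20 without IR pool 2). Psmb6 was also not called with the replicate number as a block (-0.26, adjusted p = 0.0539). With library size alone 6 of the 12 lower calls were lost: Psma7 (0.02), Psmb1 (-0.028), Psmb6 (0.049), Psmc3 (-0.20), Psmc4 (-0.12) and Psme1 (-0.14). Requiring 10 counts in every library ended 3 of the 4 core calls, Psma7 (-0.18), Psmb1 (-0.23) and Psmb6 (-0.15), and left Psma4.

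Psme4, the PA200 gene, moved the other way. Its log2 ratios were -1.63, -1.59 and -1.61 in the Ctrl pools and -1.11, -0.84 and -0.84 in the IR pools, every IR pool higher, and its interaction was 0.68 ± 0.12 (SE), adjusted p = 0.000261, the one higher call among the members. The gene was below its Input in every pool of both conditions. Its Input level fell with IR and its IP level rose, as set out next.

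**Figure D3:**
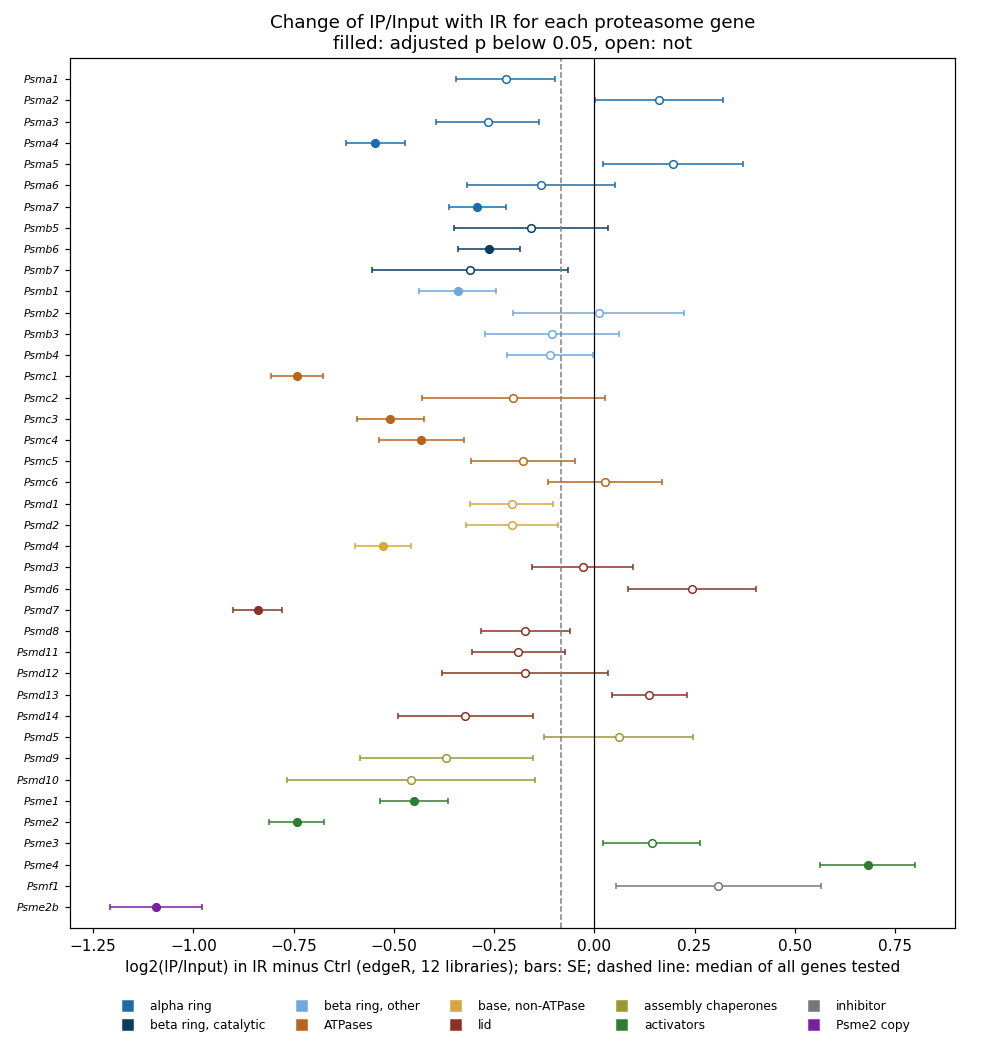
Fitted change of log2(IP/Input) with IR for each proteasome gene, with its SE, grouped by role; filled points passed the test, and the dashed line is the median of all genes tested, -0.083. Psme4 stands at 0.68, and the lowest are Psme2b at -1.09, which shares its sequence with Psme2, and Psmd7 at -0.84. Psma8, Psmb11 and Psmc3ip are not drawn, and the low-count gene Psma8, at -1.23, did not pass.

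Between the IPs themselves, 2 of 41 members were higher in IR and 7 lower, where 6.12% of all genes were higher and 9.85% lower; of abundant coding genes 30.0% were lower. Psma8 was too low to be tested here. With library size alone, which moved the median of all genes by 0.21, 7 members were higher and 4 lower. Of the core, Psma4 was lower (-0.37 ± 0.059 (SE), adjusted p = 0.000301) and was the one call of 14 core genes tested. Among the regulatory genes, 5 were lower: Psmd7 (-0.68 ± 0.051 (SE), adjusted p = 1.01e-07), Psmc1 (-0.41 ± 0.058 (SE), adjusted p = 0.000119), Psmc3 (-0.48 ± 0.094 (SE), adjusted p = 0.00215), Psmc4 (-0.40 ± 0.10 (SE), adjusted p = 0.0125) and Psme2 (-0.32 ± 0.065 (SE), adjusted p = 0.0028). The 2 higher genes were Psme4 (0.48 ± 0.14 (SE), adjusted p = 0.0253) and the lid gene Psmd13 (0.35 ± 0.095 (SE), adjusted p = 0.0173). Both higher calls failed the threshold in a fit with 1 library fewer, at similar fitted changes. That of Psme4 was lost on leaving out any of 4 libraries (0.49 without Ctrl pool 1, 0.50 without Ctrl pool 2, 0.46 without Ctrl pool 3 and 0.45 without IR pool 2), that of Psmd13 with 0.30 without Ctrl pool 1 and 0.34 without Ctrl pool 2, and the lower call of Psmc4 with -0.37 without Ctrl pool 1 and -0.35 without Ctrl pool 2. Psmc3, Psmc4 and Psme2 were not called with library size alone (-0.27, -0.19 and -0.11). Set beside the Input, Psmc1, Psme2 and Psme2b were higher in the IR Input and lower in the IR IP. Psme4 was lower in the IR Input and higher in the IR IP. For Psmd7 and Psma4 the Input change did not pass the test and the IP was lower. For Psmd4 and Psme1 the Input was higher and the IP change did not pass (-0.13 and -0.11).

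**Figure D4:**
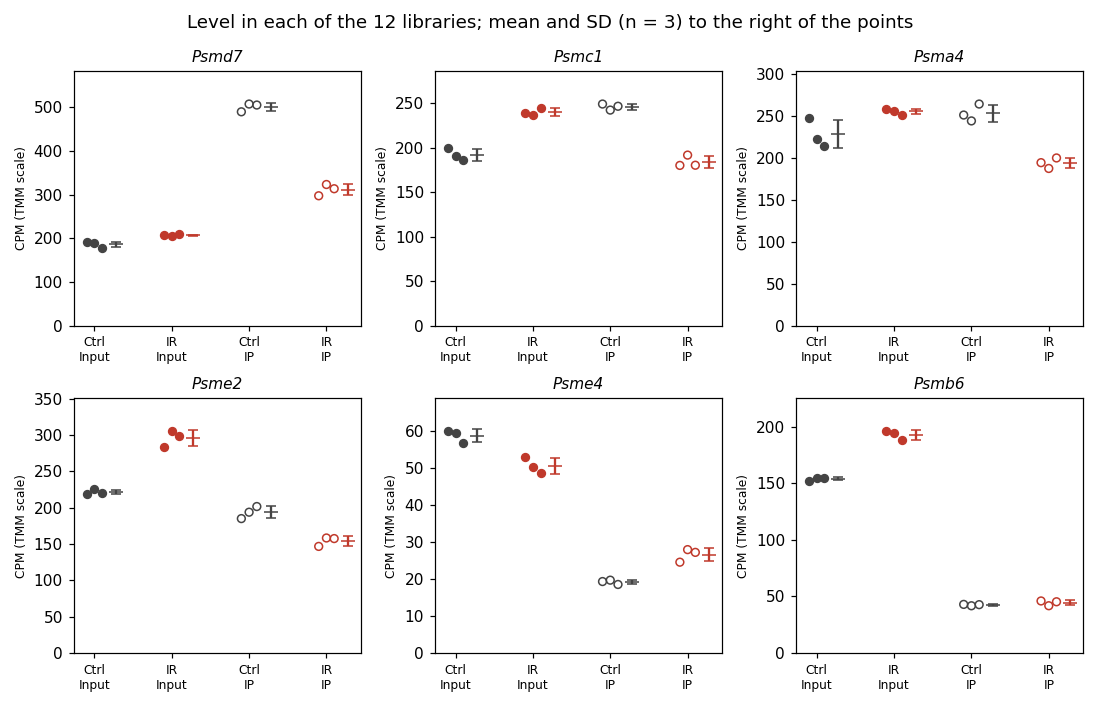
Level (CPM, TMM scale) of Psmd7, Psmc1, Psma4, Psme2, Psme4 and Psmb6 in each of the 12 libraries, by condition and fraction, with the mean and SD (n = 3) beside the points. Psmd7 averages 501 CPM in the Ctrl IPs and 186 CPM in the Ctrl Inputs, while Psmb6 averages 42.5 and 154 CPM.

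The member with the highest ratio was Psme2b, the copy of Psme2. Psme2 lies at chr14:55587441-55591113, minus strand (mm10), and its transcript has 11 exons. Psme2b, at chr11:48945354-48946190, minus strand, is a single exon without introns. Their coding sequences of 717 bases are 99.3% identical, with 5 differences, C312T, A369G, C489T, C519T and C543T, written as the Psme2 base, the position from 1 at the first coding base, and the Psme2b base. The longest stretch without a difference is 311 bases, so a short read from either mRNA can often be placed on both. Bases 481 to 550 of both coding sequences, read from the GENCODE M21 transcripts, hold 3 of the 5 differences, in capitals.
Psme2: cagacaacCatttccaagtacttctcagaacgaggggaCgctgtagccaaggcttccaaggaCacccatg
Psme2b: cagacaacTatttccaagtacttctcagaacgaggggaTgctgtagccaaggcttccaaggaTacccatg
Psme2b had 33.4, 31.4 and 32.99 CPM in the Ctrl Inputs and 41.8, 49.3 and 43.5 CPM in the IR Inputs. In the IPs it had 338, 305 and 286 CPM in the Ctrl IPs and 226, 193 and 181 CPM in the IR IPs. The IP levels were higher than all Input levels in both conditions, with fitted log2 ratios of 3.32 ± 0.063 (SE), adjusted p = 1.36e-17 in Ctrl and 2.21 ± 0.095 (SE), adjusted p = 6.04e-09 in IR, and an interaction of -1.09 ± 0.11 (SE), adjusted p = 7.57e-07. Psme2, for comparison, had 185, 194 and 202 CPM in the Ctrl IPs and 147, 158 and 158 CPM in the IR IPs.
In the Ctrl Input the copy was at 14.7% of the Psme2 level, and in the Ctrl IP at 159.9% of it. When the reads of both genes were added, an alternative chosen after the data were seen, the ratio of Psme2 became 1.06 in Ctrl and 0.11 in IR (adjusted p = 9.27e-14 and 0.0841), in place of -0.12 and -0.89, and the interaction -0.93. The sign of the ratio of Psme2 thus depended on whether the reads counted on Psme2b were added to it, and the level of either gene alone is uncertain.

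Psma4 showed a like pattern with a pseudogene. Gm6542, which is not a member and was named after its values were seen, is a processed pseudogene with 96.8% identity to the Psma4 transcript over 783 bases. It had 6.21, 6.47 and 6.20 CPM in the Ctrl Inputs and 10.1, 10.5 and 9.86 CPM in the IR Inputs, 62.05, 67.2 and 79.4 CPM in the Ctrl IPs and 65.7, 46.7 and 51.2 CPM in the IR IPs. Its log2 ratio was 3.54 ± 0.10 (SE), adjusted p = 3.66e-15 in Ctrl and 2.48 ± 0.14 (SE), adjusted p = 5.51e-08 in IR, with an interaction of -1.04 ± 0.17 (SE), adjusted p = 0.00019. With its reads added, Psma4 was at 0.54 in Ctrl and -0.042 in IR (adjusted p = 9.46e-08 and 0.498), and its interaction was -0.56. In all, 16 members matched a pseudogene elsewhere in the genome with at least 90% identity over at least 200 bases. Another 4 (Psmb7, Psmd1, Psmd13 and Psmc3ip) matched only a gene whose exons overlap their own. Several other members had copies with few reads: those of Psma3 were at 2.998% of the Psma3 level in the Ctrl Input and 5.88% in the Ctrl IP, and those of Psma5 and Psmb3 at 0.97% and 0.19% in the Ctrl Input. Exons of Psmb7, Psmd13 and Psmc3ip overlap those of Nek6, Sirt3 and Mlx on the opposite strand, over 11.8%, 10.1% and 21.2% of their length, and Psmd9 overlaps a long noncoding RNA over 25.5%. The strand setting of the counting is not given in the sources used here, so reads in those stretches cannot be told apart.

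Most subunit transcripts were shorter than the median coding gene, a property that the choice by symbol did not use. Over the 40 core and regulatory genes tested, the median transcript was 1561 bases long, against 2958 over the 13032 protein-coding genes tested. It was under the median of all coding genes for 35 of the 40. The last exon was 357.5 bases against 1290.0 and under that median for 33 of 40, with exceptions such as Psma2, Psma3, Psmd5 and Psmf1, and the 3′ UTR was 270.5 bases against 976. No test of these medians was run. Exons per kb of transcript were 6.81 against 3.45. Matches to DRACH, the sequence context in which m6A is placed, were as dense as elsewhere, with 20.8 per kb against 20.1. GC content was 49.3% against 50.6%. Core transcripts were shorter than regulatory ones, with medians of 1165 and 1785 bases, and had 3′ UTRs of 165 and 357 bases. Across the members these features followed the Ctrl ratio weakly: Spearman's rho was 0.29 for both exon number and coding length, 0.15 for transcript length, -0.019 for the 3′ UTR, 0.25 for exons per kb and -0.017 for DRACH density (40 genes, given as a description without a test). Over the 13032 coding genes rho was 0.246 for transcript length, 0.255 for coding length and 0.008 for exon number. It was 0.105 for the 3′ UTR, 0.066 for DRACH density and -0.211 for exons per kb, the last opposite in sign to that of the members.

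The genes that build, feed and control the proteasome were measured as a list of 29: assembly factors of the core, proteins associated with the regulatory particle, the inducible catalytic subunits, ubiquitin shuttle factors, factors that control proteasome transcription, and ubiquitin genes. In the Input 10 of the 29 were higher after IR and 8 lower, 34.5% and 27.6%, where abundant coding genes had 32.6% and 33.7% and all genes tested 21.0% and 23.9%. The assembly factor Pomp, which completes the core, had 174, 176 and 176 CPM in the Ctrl Inputs and 245, 232 and 230.0 CPM in the IR Inputs and rose by 0.35, and Sem1, a small lid protein, rose by 0.35 from 429.5, 444 and 449.7 CPM to 595, 586 and 596 CPM. The inducible subunits Psmb8 and Psmb9 rose by 0.17 and 0.26, and Psmb10 did not pass (0.13, adjusted p = 0.0543). The shuttle factors were the part of the list without a higher call, with 3 of 6 lower, among them Rad23b (-0.66 ± 0.047 (SE), adjusted p = 7.85e-12). Nfe2l1, which encodes NRF1, rose by 0.11, and Ddi2, the protease that releases NRF1, changed by -0.39 (adjusted p = 6.65e-08). In the Ctrl IP, 4 of the 29 were higher than in Input and 24 lower, and in IR 3 and 24. The lower share was 82.8% in each, against 47.3% and 51.4% of abundant coding genes and 34.6% and 30.4% of all genes. Nfe2l1 had 200.2, 206 and 201 CPM in the Ctrl Inputs, 229.6, 233 and 232 CPM in the IR Inputs, 517, 515 and 508 CPM in the Ctrl IPs and 398, 423 and 415 CPM in the IR IPs, above its Input in every pool, with ratios of 1.42 ± 0.038 (SE), adjusted p = 1.04e-15 in Ctrl and 0.89 ± 0.043 (SE), adjusted p = 1.62e-08 in IR. The other higher genes in Ctrl were Ddi2 (0.95), the shuttle gene Ubqln4 (0.94) and the assembly gene Psmg3 (0.40). Pomp and Sem1 were lower, at -1.47 and -2.29. The ratio was lower after IR for 11 of the 29 and higher for 1, Rad23b (0.48 ± 0.15 (SE), adjusted p = 0.0246), and between the IPs 1 was higher and 3 were lower. The 37.9% with a lower ratio were close to the 38.7% of abundant coding genes, and 13.9% of all genes were lower.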

How the data were processed

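RIP-seq was carried out on CD11b+ myeloid cells of WT mice, and each of 12 libraries was grouped by its title and treatment label. Reads had been trimmed (Trimmomatic 0.39), aligned to mm10 (HISAT) and counted per gene (HTSeq) before deposit, and the counts deposited by the authors are unnormalized whole numbers. The antibody and the RNA selection differ between the sources: Aviva and total RNA in the study's methods, Abcam and mRNA in the labels. The strand option of the counting is not given in the sources used here. Reads without molecular identifiers are not independent molecules, so a floor of 3 counts holds for counting error alone.

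All genes that reached 10 counts in 3 or more of the compared libraries entered edgeR 4.0.16 (quasi-likelihood F-test after TMM, R 4.3.3). Benjamini-Hochberg adjusted p-values under 0.05 were called. Each SE was obtained by dividing the size of the log2 fold change by the root of its F statistic. Log2(IP/Input) per pool used a prior count of 2. TMM takes most genes as unchanged and cannot show a shift shared by most genes. DESeq2 1.42.0, library size alone, other filters, a joint fit, the replicate block, coding genes only and each pool left out were alternatives. The steps were also run on simulated counts with planted changes. There every gene had the same dispersion and, apart from those changes, the same relative level in Input and IP. The real IP replicates varied more than the Inputs, so that run does not measure error rates for these data. Copies were found with blastn 2.17.0, gene models came from GENCODE M21, and promoters from RefSeq (GRCm38.p6).

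The members, the gene lists and the tests were chosen with earlier results of these data known. Every member is named, and values per library are given for the highest and lowest member of each role in Input and in the interaction, the catalytic subunits, and members whose call went against their role.

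In the study's methods a part of each lysate was saved as Input and the rest went to the IP. That libraries with the same number in a condition came from 1 lysate is not stated and was assumed for the ratios per pool. Their deviations from the group means hardly correlated (r from -0.019 to 0.015). The main fits did not use this pairing. Ctrl and IR pools with the same number came from different mice.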

Additional observations from a re-analysis of the deposited data

Results flagged for a closer look

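For 13 members the ratio of IP to Input changed with IR by a test of the difference itself (edgeR, interaction over 12 libraries), and each is listed here with its log2 change. In the core these were Psma4 (-0.55), Psmb1 (-0.34), Psma7 (-0.29) and Psmb6 (-0.26). Among the regulatory genes they were Psmd7 (-0.84), Psmc1 (-0.74), Psme2 (-0.74), Psmd4 (-0.53), Psmc3 (-0.51), Psme1 (-0.45), Psmc4 (-0.43) and, in the other direction, Psme4 (0.68). The copy Psme2b changed by -1.09. All IR pools lay outside the range of the Ctrl pools for each of the 13, which were picked by a test on the same libraries. Among all genes tested, every IR pool lay below every Ctrl pool for 21.5% and above for 13.9%. By the interaction test 13.9% of all genes were called lower and 6.28% higher.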

How the results depend on the processing

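With library size alone in place of TMM, 4 members were higher in the IP in Ctrl, the change of the ratio was higher for 4 and lower for 6, and the IP was higher in IR for 7 and lower for 4. The core and regulatory medians were then -1.70 and -0.91 (IP/Input, Ctrl), -1.75 and -0.68 (IR), and 0.093 and 0.11 (interaction), and the regulatory median of the IP comparison was 0.049; Psme1 in Ctrl (-0.0032) and the interactions of Psma7 (0.020) and Psmb6 (0.049) changed sign. A joint fit of 12 libraries gave 2 lower members in Input, medians of 0.20 and 0.054 there, a core median of -1.59 (Ctrl IP/Input) and 11 lower members in the IP. Without a filter 4 members were higher in the Ctrl IP, with a regulatory median of -0.84 and a core median of -2.11 in IR. The core then held 16 tested genes, Psma8 and Psmb11 included. At least 10 counts in every library gave core medians of -1.62 (Ctrl), -1.65 (IR) and -0.078 (interaction). Nuclear coding genes only gave core medians of -1.42, -1.76 and -0.14 and a regulatory median of -0.62 in Ctrl. Adding the reads of annotated copies, chosen after the data were seen, reversed Psme2 to 1.06 in Ctrl and 0.11 in IR. The cause of these shifts was not tested.

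Leaving out each pool moved the Input core median between 0.085 and 0.13, the core IP/Input median between -1.64 and -1.47 in Ctrl and -1.79 and -1.67 in IR, the regulatory one in IR between -0.77 and -0.66, and the core interaction between -0.25 and -0.16. With all pools the IR medians were -1.90 and -0.83. Each IR fit with a pool left out tested 14 core genes in place of 15, without the low-count Psma8. The median of all genes tested moved by -0.065 to -0.090 in those fits. The part of these changes in the shifts was not tested. The regulatory Input median, -0.024 with all pools, was -0.060 without Ctrl pool 3 and -0.0060 without IR pool 2, and the regulatory interaction, -0.20, was -0.12 without IR pool 1 and -0.27 without IR pool 3. Counts of members ranged from 12 to 17 higher and 4 to 6 lower (Input), 5 to 7 and 29 to 30 (Ctrl IP/Input), 33 to 35 lower (IR), 10 to 12 lower (interaction), and 0 to 2 higher and 6 to 8 lower (IP); the 0 came without pools that end the calls of Psme4 and Psmd13.

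The replicate block gave 17 higher and 7 lower members in Input, where the numbers join different mice, and 11 lower interactions. Psmb6 was the one call it ended.

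Apart from the added copy reads, under every setting run 12 of 20 calls in Input, 32 of 38 in Ctrl IP/Input, 34 of 39 in IR, 7 of 13 for the interaction and 4 of 9 in the IP passed. Replicate libraries varied by more than counting noise (chi-square per degree of freedom 3.6 to 21.5). With the main filter, low counts kept Psmb11 out of every test and Psma8 out of that between the IPs.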
